A study of Homo sapiens with 6 samples.

Results

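The mRNA levels of 37 genes of cholesterol and fatty acid synthesis were compared between T98G cells that lack CBX8 and the same knockout line with WT CBX8 re-expressed. The genes were chosen by symbol, all 37 are rows of the count table of 57133 symbols, and all 37 are among the 14461 genes with enough counts to test. They were divided by role into 4 regulators, 19 genes of the sterol branch and 14 genes of the fatty acid branch. T98G is an established human glioblastoma line. Both conditions are a T98G CBX8 KO line made with a CRISPR guide, carrying an rtTA activator and a doxycycline-inducible lentiviral vector, and all libraries come from cells given doxycycline at 1 μg/ml for 72 h. In CBX8 KO (3 libraries) the vector was empty, and in WT CBX8 re-expression (3 libraries) it carried V5-tagged WT CBX8. The sample labels call the latter genotype wild type, although their titles and the study's methods describe re-expression in the knockout line. The vectors were put into the cells separately, each followed by selection, so the effect of CBX8 and a difference between separately selected lines cannot be told apart. The sources used here do not say whether the knockout line was 1 clone or whether the 3 libraries were made from separate cultures. Thus n counts libraries. Each p-value sets the difference against the spread between these libraries, estimated partly from all genes together. CBX8 itself had 96, 104 and 83 counts in CBX8 KO, and the re-expression libraries had 30372, 31408 and 27791. This matches the labels (log2 fold change 8.22, SE 0.08, edgeR adjusted p = 1e-30). No library of T98G cells with unedited CBX8 is present, so whether this level exceeds the endogenous one cannot be told.

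Cholesterol is built from acetyl-CoA, first along the mevalonate steps and then, from squalene on, through a series of sterol intermediates. Fatty acids are built from the same acetyl-CoA by carboxylation, condensation, desaturation and elongation, and are activated to acyl-CoA before use. Both branches are under the SREBP transcription factors, which are held in the endoplasmic reticulum by SCAP and INSIG proteins when sterols are plentiful and are released to the nucleus when sterols are scarce. SREBP2, encoded by SREBF2, acts mainly on sterol genes, and SREBP1, encoded by SREBF1, mainly on fatty acid genes. Glioblastoma cells are known for high demand for cholesterol and for unsaturated fatty acids.

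SREBP proteins bind sterol regulatory elements near gene starts, commonly beside sites for NF-Y and Sp1. Promoter sequences from RefSeq (GRCh38.p14) were taken from 250 bases before to 50 bases after the RefSeq gene start. They were found for 33 of the 37 genes, and none was listed for ACAT2, FASN, FDFT1 and SQLE. The RefSeq start can differ from the gene coordinates printed below, which follow GENCODE. For ACSS2 the window was chr20:34874739-34875038, which lies inside its printed gene coordinates. By GENCODE coordinates the same held for SCAP, MVK, CYP51A1, DHCR7, ACLY, FADS1, FADS2, ELOVL6 and ACSL1. Of these, DHCR7, FADS1, FADS2 and ACSL1 fell upon re-expression. The sequence TCACNCCAC, a form of the sterol regulatory element, was searched on both strands and occurred in 1 of the 33 promoters, that of SREBF2, against 1.15% of all 27305 promoters of this length. In SREBF2 it begins 133 bases before the start. It is shown because SREBF2 was itself lower upon re-expression, with the match in capitals.

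SREBF2 (chr22:41832962-41832990, plus strand): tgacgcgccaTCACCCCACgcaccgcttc

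CCAAT, the core of the NF-Y site, was found on either strand in 22 of the 33 promoters (66.7%) and in 35.7% of all promoters. It was present in 8 of the 11 promoters of genes that fell, in 1 of 2 of genes that rose and in 13 of 20 of genes that did not pass the test, which is 72.7% of the genes that fell and 65% of those that did not pass. GGGCGG, the core of the Sp1 site, was found in 30 of the 33 (90.9%) against 44.6% of all. It was in 81.8% of the genes that fell and in 95% of those that did not pass. CACGTG, the E-box, was found in 5 of the 33 (15.2%) against 7.43% of all. It was in 18.2% of the genes that fell and in 15% of those that did not pass. The 27305 promoters were not limited to genes tested here. The matches are letters in a window and not measured binding. For the genes that passed the test with the largest changes and have a match, a copy of CCAAT is given on the strand of the gene. It is the copy nearest the start among those that lie before it with 10 bases on each side. The start here is that of RefSeq, and the HMGCS1 copy lies inside its GENCODE gene coordinates. Copies closer to the start or after it were not considered for display. CCAAT or its reverse complement ATTGG is in capitals.

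SCD (chr10:100347037-100347061, plus strand): ttcccttcggCCAATgacgagccgg

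INSIG1 (chr7:155297698-155297722, plus strand): ccggcctcccATTGGttgcggccgc

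STARD4 (chr5:111512651-111512675, minus strand): cccgcgccagCCAATccgaacaagc

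HMGCS1 (chr5:43313498-43313522, minus strand): accggccgcgATTGGctgtgggagc

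SREBF2 (chr22:41832989-41833013, plus strand): tcgctcgcccATTGGctgagatgag

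MSMO1 (chr4:165327625-165327649, plus strand): ctctcgcaggCCAATaacgacagga

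ACSS2 (chr20:34874856-34874880, plus strand): cctccttgggATTGGgcagactctc

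The copies shown for SCD, STARD4 and MSMO1 read CCAAT on the strand of the gene, and those shown for INSIG1, HMGCS1, SREBF2 and ACSS2 read it on the other strand. ACSS2 rose upon re-expression and the other 6 fell.

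Of the 37 genes, 14 fell upon WT CBX8 re-expression, 2 rose and 21 did not pass the test (edgeR's quasi-likelihood test, Benjamini-Hochberg adjusted p under 0.05 over all 14461 genes, 3 libraries against 3). The 14 that fell are 37.8% of the genes, whereas 6.63% of all tested genes fell. The 37 genes were chosen with earlier results of these data known, so such shares are a description only. The 2 that rose are 5.41%, against 6.23% of all tested genes. The log2 fold change, WT CBX8 re-expression over CBX8 KO, was below 0 for 31 of the 37 genes and had a median of -0.13, whereas the median over all tested genes was 0.0049. The genes are better expressed than most, with a median of 48.6 CPM (counts divided by the normalized library size) against 23.3 CPM over all tested genes. Among genes with a mean of at least 5 CPM, 8.09% of all 11402 fell, compared with 41.2% of the 34 members above this level, and 6.92% of all rose, compared with 5.88% of the members. The changes were moderate, and 2 of the genes, SCD and SQLE, fell by more than 1.5-fold.

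The largest decreases were those of SCD (-0.82), SQLE (-0.62), STARD4 (-0.56) and INSIG1 (-0.53) on the log2 scale. Taking CPM per library, 19 genes were lower in all 3 re-expression libraries (14.4% of all tested genes were) than in all CBX8 KO libraries and 4 were higher in all 3 (14.4% of all). All genes lower by the test were among the 19. With library size as the only scaling, 27 of the 37 genes were below 0, 10 fell and 3 rose, while 592 of all tested genes fell and 1400 rose. With the correction for GC content and transcript length, 16 fell and 2 rose. In that fit 12691 genes were tested, of which 1531 fell and 741 rose. Without WT CBX8 re-expression replicate 2, 10 of the 14 still fell and both others still rose.

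**Figure D1:**
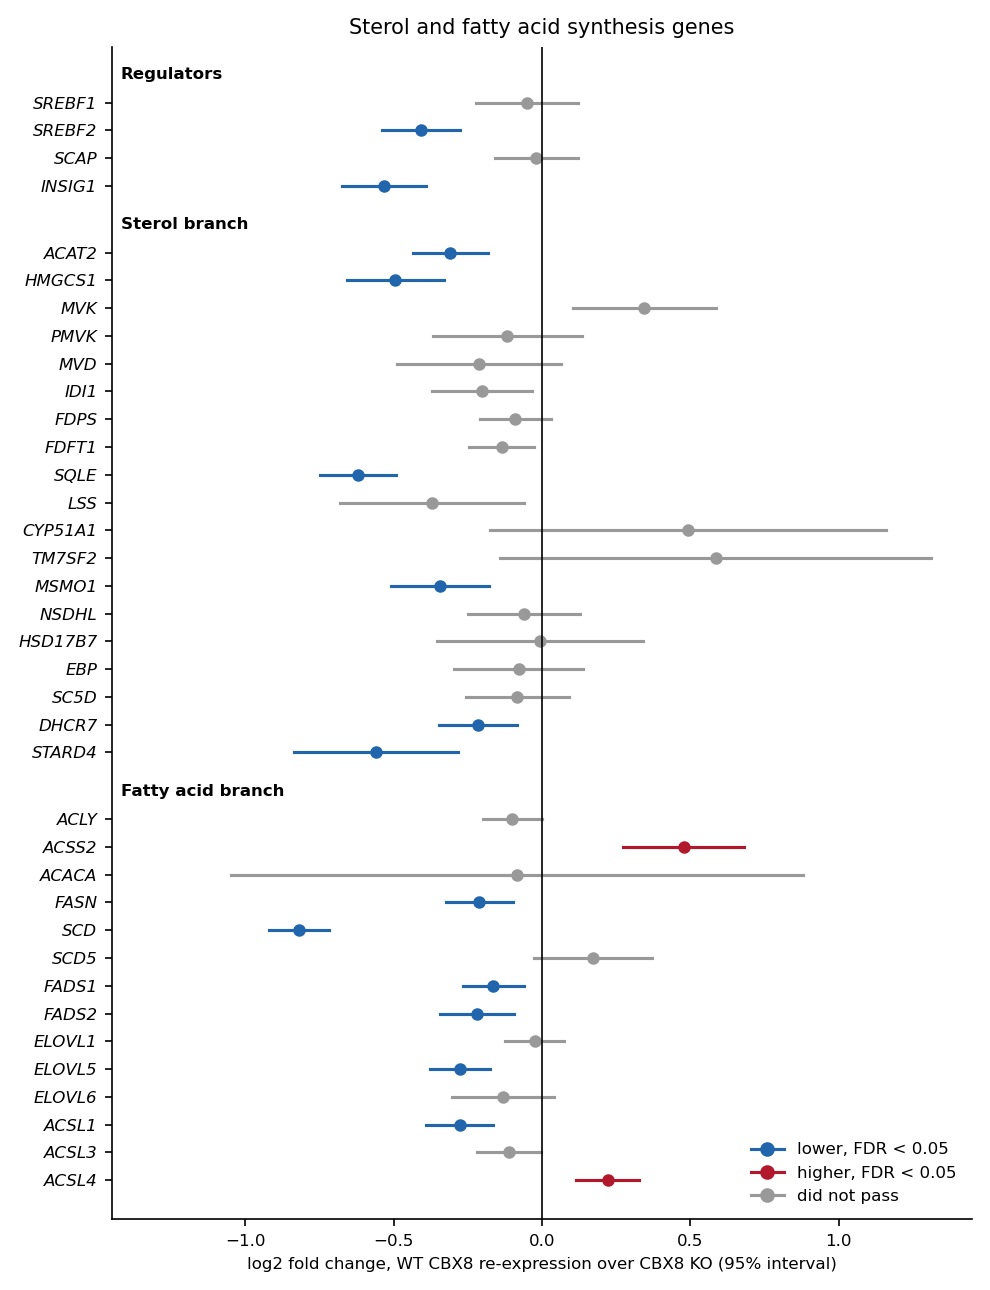
Log2 fold change of each of the 37 genes, WT CBX8 re-expression over CBX8 KO (x axis), by role, with bars for the 95% interval of the edgeR fit (3 libraries per condition). Blue genes fell and red genes rose at an adjusted p under 0.05, and SCD lies farthest to the left at -0.82.

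Total counts per library were between 7950190 and 8659796. Among 10 markers of an astroglial or mesenchymal glioblastoma line, SOX2 and PTPRZ1 were at 0 in all 6 libraries and NES was under 0.5 CPM, and the summed level was 6289 to 6580 CPM in CBX8 KO and 6042 to 6472 CPM upon re-expression. Of the others, 2 were lower in every re-expression library than in every CBX8 KO library, CD44 (2366 to 2620 against 2797 to 3064 CPM) and SOX9 (71.4 to 81.5 against 86.7 to 98.8 CPM). In the same sense 4 were higher, FN1 (610.3 to 677 against 529 to 557 CPM), VIM (2761 to 2907 against 2697 to 2760 CPM), GFAP (2.26 to 3.43 against 1.66 to 2.15 CPM) and OLIG2 (2.26 to 4.34 against 1.66 to 1.92 CPM), while S100A6 overlapped. The part of these markers in the results was not tested. Markers of hepatocytes and adipocytes, cell types that make much lipid, summed to at most 1.14 and 0.768 CPM in any library. The 3 markers of neurons summed to 11.3 to 13 CPM in CBX8 KO and to 13.9 to 16.7 CPM upon re-expression, with RBFOX3, the most specific of them, at 0 to 1 counts, and their part in the results was not tested. Re-expression libraries had more genes with at least 1 count (22208 to 22428) than CBX8 KO libraries (21475 to 21674) and slightly larger scaling factors (1.01 to 1.03 against 0.971 to 0.987), and the part of these in the results was not tested. The share of mitochondrially encoded counts was 6.85% to 7.96% in CBX8 KO and 5.96% to 6.99% upon re-expression, and with these genes left out 14 members still fell and 2 rose. In such bulk libraries fewer cells of a type and less RNA per cell cannot be told apart.

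Among the regulators, SREBF2 and INSIG1 fell, and SREBF1 and SCAP did not pass the test. SREBF2 (chr22:41833105-41907306, plus strand, hg38 as all gene coordinates here), which encodes SREBP2, was at 77.4, 79.7 and 87.4 CPM in the CBX8 KO libraries and at 65.0, 58.0 and 61.2 CPM upon re-expression. All 3 re-expression libraries were under the lowest CBX8 KO library. The mean fell from 81.5 ± 5.25 to 61.4 ± 3.49 CPM (SD, 3 libraries each), with a log2 fold change of -0.41 (SE 0.06, edgeR adjusted p = 5.5e-05). INSIG1 (chr7:155297776-155310235, plus strand) encodes an anchor that keeps the SCAP and SREBP complex in the endoplasmic reticulum, and it is itself an SREBP target. It was at 79.4, 71.2 and 70.0 CPM in CBX8 KO and at 52.7, 46.7 and 53.2 CPM upon re-expression. The groups did not overlap, and INSIG1 was lower by 30.8% (log2 fold change -0.53, SE 0.07, edgeR adjusted p = 3.7e-06).

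SREBF1, which encodes SREBP1, was at 40.9, 37.5 and 45.6 CPM in CBX8 KO and at 41.1, 41.0 and 37.4 CPM upon re-expression. SCAP, the sterol-sensing escort of SREBP, was at 56.7, 59.4 and 53.4 CPM in CBX8 KO and at 54.4, 59.0 and 53.9 CPM upon re-expression. The libraries of the conditions overlapped for both genes. The log2 fold change of SREBF1 was -0.05 (95% interval -0.22 to 0.12, edgeR adjusted p = 0.76) and that of SCAP was -0.02 (95% interval -0.16 to 0.12, edgeR adjusted p = 0.9). With library size as the only scaling they were 0.0047 and 0.0364, and with the correction for GC content and length they were -0.21 (edgeR adjusted p = 0.055) and -0.15 (0.11). These intervals leave room for changes of SREBF1 and SCAP of up to about 0.22 on the log2 scale. Within each library, where scaling plays no part, the ratio of SREBF2 to SREBF1 counts was 1.89, 2.12 and 1.92 in CBX8 KO and 1.58, 1.42 and 1.64 upon re-expression. The ratio of INSIG1 to SCAP counts was 1.40, 1.20 and 1.31 in the knockout, compared with 0.968, 0.793 and 0.987 with CBX8. Neither ratio overlapped between conditions.

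Of the 7 genes of the mevalonate steps, the ones at the entry fell, ACAT2 and HMGCS1, and the other 5 did not pass the test. ACAT2 (chr6:159762045-159779112, plus strand) joins acetyl-CoA molecules to acetoacetyl-CoA and was at 92.4, 85.5 and 99.8 CPM in CBX8 KO and at 77.0, 75.2 and 71.9 CPM upon re-expression. HMGCS1 (chr5:43287470-43313512, minus strand) makes HMG-CoA from it and was at 54.1, 63.6 and 52.9 CPM in CBX8 KO and at 38.9, 38.6 and 43.8 CPM upon re-expression. For both genes every re-expression library was below every CBX8 KO library. HMGCS1 fell by 29%, at -0.49 on the log2 scale (SE 0.08, edgeR adjusted p = 8.8e-05), and ACAT2 by 19.2%, at -0.31 (SE 0.06, edgeR adjusted p = 0.00098). Exons of genes on the opposite strand overlap 36.3% of the bases of the main ACAT2 transcript and 46.7% of those of HMGCS1. Another locus matches 43.6% of the HMGCS1 bases. The counting is not stated to use strand, so reads in these stretches may belong to either gene. Of the genes that overlap ACAT2, SOD2 fell as well (log2 fold change -0.32, edgeR adjusted p = 0.00017) and TCP1 did not pass (-0.11, edgeR adjusted p = 0.12).

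MVK, which phosphorylates mevalonate, was the member of these steps with a value above 0. It was at 10.7, 11.1 and 11.7 CPM in CBX8 KO and at 14.7, 14.1 and 13.7 CPM upon re-expression. The groups did not overlap, and its log2 fold change of 0.34 (95% interval 0.10 to 0.59) just missed the threshold (edgeR adjusted p = 0.052). It passed with upper quartile scaling (edgeR adjusted p = 0.044) and with library size only (0.024), and over all alternatives the adjusted p lay between 0.024 and 0.24. The ratio of MVK to HMGCS1 counts within a library was 0.198, 0.174 and 0.22 in CBX8 KO and 0.378, 0.364 and 0.312 upon re-expression.

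PMVK, MVD, IDI1 and FDPS, which carry mevalonate phosphate to farnesyl diphosphate, had log2 fold changes of -0.12, -0.21, -0.20 and -0.09 with adjusted p-values from 0.11 to 0.61 in edgeR. IDI1 and FDPS were lower in all re-expression libraries than in all CBX8 KO libraries, and the values of PMVK and MVD overlapped. The counts of FDPS and IDI1 are uncertain, since other loci match up to 74.5% of the FDPS bases and 60.1% of the IDI1 bases, and a gene on the opposite strand overlaps 41.4% of the FDPS transcript. IDI1 passed the test without WT CBX8 re-expression replicate 1 (log2 fold change -0.28, edgeR adjusted p = 0.031). MVD was at 17.2, 14.5 and 23.6 CPM in CBX8 KO, and without CBX8 KO replicate 3, the highest of these, its log2 fold change was 0.0007.

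Of the 11 genes from squalene to cholesterol, SQLE, MSMO1 and DHCR7 fell and 8 did not pass. SQLE encodes squalene monooxygenase, the first oxygen-requiring step and a known control point of the pathway. It was at 70.5, 71.3 and 73.7 CPM in CBX8 KO and at 47.0, 47.3 and 45.8 CPM upon re-expression. The conditions were far apart compared with the spread of libraries, with means of 71.8 ± 1.66 and 46.7 ± 0.775 CPM (SD, n = 3 each). SQLE fell by 35% (log2 fold change -0.62, SE 0.06, edgeR adjusted p = 6.1e-08), and this was between -0.64 and -0.57 over all alternatives. FDFT1, which makes squalene in the step before, was at 123, 118 and 113 CPM in CBX8 KO and at 108, 106 and 109 CPM upon re-expression. Its libraries did not overlap either, but the difference was small (log2 fold change -0.14, 95% interval -0.25 to -0.03) and did not pass the test (edgeR adjusted p = 0.1). Counts of SQLE per count of FDFT1 within a library were 0.572, 0.604 and 0.654 in CBX8 KO and 0.437, 0.446 and 0.421 upon re-expression.

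MSMO1 (chr4:165327667-165343164, plus strand) removes methyl groups from the sterol nucleus and was at 45.2, 40.8 and 44.9 CPM in CBX8 KO and at 34.8, 35.6 and 32.6 CPM upon re-expression. DHCR7 (chr11:71428193-71452868, minus strand), the reductase of the last step, was at 63.1, 60.7 and 63.7 CPM in CBX8 KO and at 55.4, 54.5 and 51.5 CPM upon re-expression. Another locus matches 60.3% of the MSMO1 bases. Both genes were lower in each re-expression library than in each CBX8 KO library. MSMO1 fell by 21.2% (log2 fold change -0.34, SE 0.08, edgeR adjusted p = 0.0044) and DHCR7 by 13.9% (log2 fold change -0.22, SE 0.06, edgeR adjusted p = 0.024). The call of DHCR7 was lost with library size only (edgeR adjusted p = 0.11), with DESeq2 (0.095), and without CBX8 KO replicate 1 (0.067), 2 (0.059) or 3 (0.065) or WT CBX8 re-expression replicate 2 (0.069) or 3 (0.099). Its direction was the same in all of these fits.

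The other sterol enzymes moved little or were measured with few counts. NSDHL, EBP, SC5D and HSD17B7, which act on sterol intermediates, had log2 fold changes between -0.08 and -0.01 with overlapping libraries and adjusted p-values of at least 0.59 in edgeR, and the sign of HSD17B7 differed between alternatives. LSS, which closes the sterol rings, was lower at -0.37 (95% interval -0.68 to -0.06, edgeR adjusted p = 0.11) from 58 to 86 counts per library, and it passed after the correction for GC content and length (adjusted p = 0.022). TM7SF2, a sterol reductase, had 11, 12 and 12 counts in CBX8 KO and 28, 18 and 10 upon re-expression. CYP51A1, lanosterol demethylase, had 14, 9 and 11 counts in CBX8 KO and 16, 18 and 17 upon re-expression. The CYP51A1 counts did not overlap and those of TM7SF2 did. With so few counts neither difference passed the test, with log2 fold changes of 0.59 (95% interval -0.14 to 1.31) and 0.49 (95% interval -0.18 to 1.16). Exons of other annotated genes on the same strand cover 90.1% of the main CYP51A1 transcript and another locus matches 95.9% of its bases, so its counts are uncertain. HSD17B7 is matched in 98.5% of its bases by the pseudogene HSD17B7P2, which had 5 to 13 counts per library. A gene on the same strand covers 57.1% of the EBP transcript.

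STARD4 (chr5:111496033-111512590, minus strand), a carrier of cholesterol between membranes and a known SREBP target, was at 11.7, 12.4 and 10.9 CPM in CBX8 KO and at 8.11, 8.22 and 7.38 CPM upon re-expression. It fell by 32.2% without overlap (log2 fold change -0.56, SE 0.13, edgeR adjusted p = 0.0054), from 62 to 104 counts per library. Summed over the 19 genes of the sterol branch, the level was 745 ± 6.8 CPM in the knockout and 636 ± 15.6 CPM with CBX8 (SD, 3 libraries each).

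**Figure D2:**
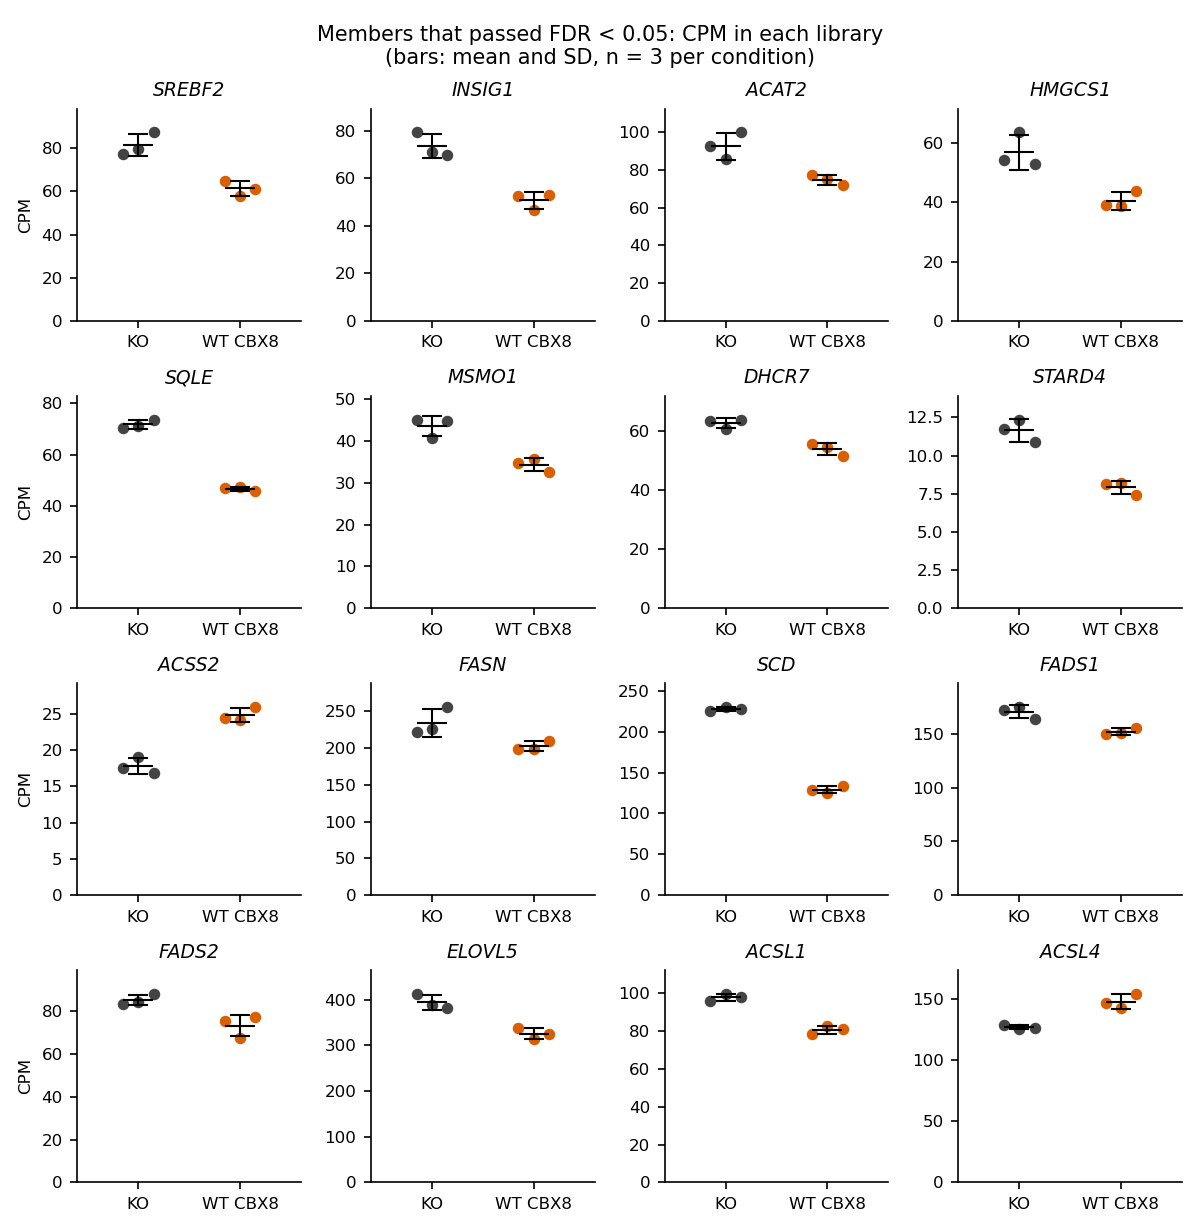
CPM (y axis, from 0) of the 16 genes that passed the test, in each of the 3 CBX8 KO and 3 WT CBX8 re-expression libraries (points), with the mean and SD of each condition (bars). The points of the conditions do not overlap in any of the 16 panels. The genes were chosen by the test on these same libraries, so this adds no support, and 28.9% of all tested genes did not overlap. SCD and SQLE are the most widely separated of the genes that fell.

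In the fatty acid branch, 6 of the 14 genes fell, ACSS2 and ACSL4 rose and 6 did not pass. The largest change was that of SCD (chr10:100347233-100364826, plus strand), the main stearoyl-CoA desaturase, which makes oleate and palmitoleate from saturated fatty acids. SCD was at 226, 231 and 228 CPM in the CBX8 KO libraries and at 129, 126 and 134 CPM upon re-expression. The libraries of each condition were within a few CPM of each other, and the means were 228 ± 2.48 and 129 ± 3.99 CPM (SD, n = 3 each). SCD fell by 43.4%, or -0.82 on the log2 scale (SE 0.05, edgeR adjusted p = 5.5e-12), and it was between -0.85 and -0.76 over all alternatives. Another locus of the genome matches 96.0% of the bases of the SCD transcript, so reads could have been lost or split there.

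The paralog SCD5 was at 27.6, 22.3 and 25.7 CPM in CBX8 KO and at 26.9, 28.9 and 29.4 CPM upon re-expression. These libraries overlapped, and the log2 fold change of 0.17 (95% interval -0.03 to 0.37) did not pass the test (edgeR adjusted p = 0.28). Within a library, SCD had 8.16, 10.3 and 8.86 counts per count of SCD5 in CBX8 KO and 4.78, 4.34 and 4.54 upon re-expression. Per kilobase of transcript, the mean ratio was 5.28 and 2.64. The lowest CBX8 KO library was above the highest re-expression library, with a ratio of means of 0.499 between conditions.

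FASN (chr17:82078338-82098294, minus strand), the synthase that builds palmitate, was at 222, 226 and 256 CPM in CBX8 KO and at 199, 199 and 210.4 CPM upon re-expression. It fell by 13.6% (log2 fold change -0.21, SE 0.05, edgeR adjusted p = 0.0097). The highest CBX8 KO value was that of replicate 3, and without it the call was lost (edgeR adjusted p = 0.083), as it was without WT CBX8 re-expression replicate 2 (0.063) and with library size only (0.059). Counts of SCD per count of FASN were 1.02, 1.02 and 0.889 in CBX8 KO and 0.645, 0.631 and 0.634 upon re-expression, so SCD was lower also in relation to FASN. With the correction for GC content and length the log2 fold change of FASN was -0.39 (edgeR adjusted p = 3.6e-07).

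FADS1 (chr11:61799627-61829318, minus strand) and FADS2 (chr11:61792980-61867354, plus strand) are neighbours that desaturate polyunsaturated fatty acids. FADS1 was at 172, 175 and 163 CPM in CBX8 KO and at 149.5, 151 and 156 CPM upon re-expression. FADS2 was at 83.3, 84.4 and 87.9 CPM in CBX8 KO and at 75.1, 67.4 and 76.9 CPM upon re-expression. Neither overlapped between conditions. Both fell slightly, FADS1 by 10.7% (log2 fold change -0.16, SE 0.05, edgeR adjusted p = 0.029) and FADS2 by 14.2% (log2 fold change -0.22, SE 0.06, edgeR adjusted p = 0.015). The ratio of FADS1 to FADS2 counts overlapped between conditions, with 2.06, 2.08 and 1.86 in CBX8 KO and 1.99, 2.23 and 2.02 upon re-expression. The call of FADS1 was lost with library size only (0.16), with DESeq2 (0.061) and without CBX8 KO replicate 1 (0.064) or 2 (0.15) or WT CBX8 re-expression replicate 1 (0.086) or 2 (0.13). That of FADS2 was lost with library size only (0.076), with DESeq2 (0.053) and without CBX8 KO replicate 3 (0.053) or WT CBX8 re-expression replicate 2 (0.16).

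ELOVL5 (chr6:53267398-53349179, minus strand), the elongase of polyunsaturated fatty acids, was at 413, 389 and 382 CPM in CBX8 KO and at 339, 315 and 324 CPM upon re-expression. It fell by 17.4% without overlap (log2 fold change -0.28, SE 0.05, edgeR adjusted p = 0.00031). ELOVL1, which extends very long saturated chains, and ELOVL6, which extends palmitate, had log2 fold changes of -0.02 (95% interval -0.12 to 0.08) and -0.13 (95% interval -0.30 to 0.04) and did not pass. Libraries overlapped for ELOVL1 and ELOVL6. The ratio of ELOVL5 to ELOVL1 counts was 2.47, 2.33 and 2.21 in CBX8 KO and 2.01, 1.93 and 1.95 upon re-expression.

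The genes that rose activate acetate and long-chain fatty acids. ACSS2 (chr20:34872146-34927962, plus strand) makes acetyl-CoA from acetate and was at 17.5, 19.0 and 16.8 CPM in CBX8 KO and at 24.3, 24.1 and 25.9 CPM upon re-expression. It rose by 39.3% without overlap (log2 fold change 0.48, SE 0.10, edgeR adjusted p = 0.0015). ACLY, which makes acetyl-CoA from citrate, was at 322, 327 and 322 CPM in CBX8 KO and at 287, 314 and 306 CPM upon re-expression. Its log2 fold change of -0.10 (95% interval -0.20 to 0.0003) did not pass the test (edgeR adjusted p = 0.2), except after the correction for GC content and length (adjusted p = 0.017). ACSS2 counts were a small share of ACLY counts in both conditions, at 0.0545, 0.0581 and 0.0521 in CBX8 KO and 0.0849, 0.0769 and 0.0849 upon re-expression.

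The long-chain acyl-CoA synthetases differed in direction. ACSL4 (chrX:109624244-109733403, minus strand), which prefers polyunsaturated fatty acids such as arachidonate, was at 129, 126 and 126 CPM in CBX8 KO and at 147, 143 and 154 CPM upon re-expression. ACSL1 (chr4:184755595-184826818, minus strand), which has a broader preference, was at 95.9, 99.5 and 97.7 CPM in CBX8 KO and at 78.4, 82.7 and 80.7 CPM upon re-expression. ACSL4 was higher and ACSL1 lower in every re-expression library than in every CBX8 KO library. ACSL4 rose by 16.6% (log2 fold change 0.22, SE 0.05, edgeR adjusted p = 0.004) and ACSL1 fell by 17.5% (log2 fold change -0.28, SE 0.05, edgeR adjusted p = 0.00092). ACSL3, which serves lipid droplets, had a log2 fold change of -0.11 (95% interval -0.22 to -0.0021) and did not pass (edgeR adjusted p = 0.19). The ratio of ACSL4 to ACSL1 counts was 1.34, 1.26 and 1.29 in CBX8 KO and 1.87, 1.73 and 1.91 upon re-expression. That of ACSL4 to ACSL3 was 0.834, 0.868 and 0.834 in the knockout, compared with 1.02, 1.08 and 1.08 with CBX8.

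ACACA, the carboxylase that makes malonyl-CoA, had 18, 10 and 11 counts in CBX8 KO and 5, 6 and 28 upon re-expression. This is few for a transcript of 10013 bases, and the level cannot be compared between conditions (95% interval of the log2 fold change -1.05 to 0.88). At least 95% of the bases of ACACA are also matched on 1 alternate contig of hg38, and whether reads were lost for this reason was not tested. None of the other 36 genes had such a copy on an alternate contig. Summed over the 14 genes of the fatty acid branch, the level was 2064 ± 12.2 CPM in the knockout and 1810 ± 31.8 CPM with CBX8 (SD, 3 libraries each).

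**Figure D3:**
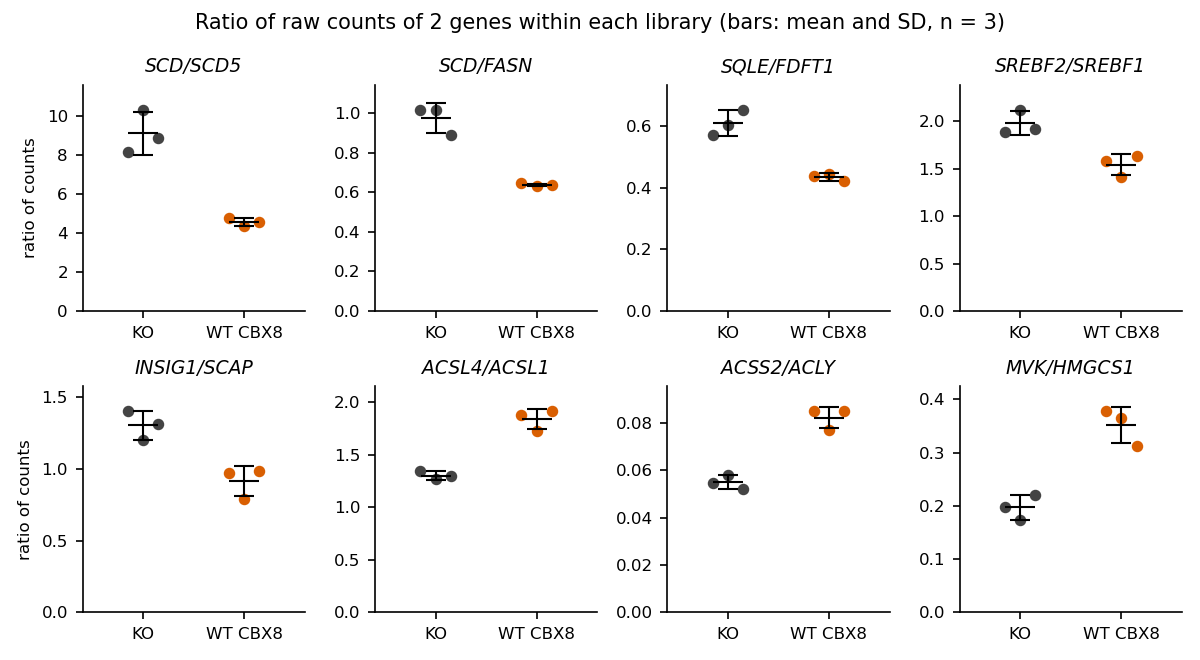
Ratio of the raw counts of 2 genes within each library (y axis, from 0), for 8 pairs, in CBX8 KO and WT CBX8 re-expression (points, 3 libraries each), with mean and SD (bars). The ratio of SCD to SCD5 is between 8.16 and 10.3 in CBX8 KO and between 4.34 and 4.78 upon re-expression. None of the 8 ratios overlaps between conditions, but the pairs were picked after the values were seen, so this adds no support. The ratio of FADS1 to FADS2, which overlapped, is among those not plotted.

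The ratios were picked after the values of the single genes were seen and are given as a description. They do not depend on how libraries were scaled. The ratios were not corrected for GC content, which differs within some pairs, as between INSIG1 (44.8%) and SCAP (61.7%).

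Levels of different genes were compared as CPM per kilobase of the main transcript, as means of the CBX8 KO libraries. ELOVL5 (143) and ELOVL1 (115) were highest, followed by ACLY (75.4), ACAT2 and FDPS (60.9 each), FDFT1 (58.0) and SCD (43.5). Upon re-expression SCD was at 24.6 CPM per kilobase, just above FASN at 24.0. Among the regulators INSIG1 was highest in CBX8 KO (25.3), before SREBF2 (15.6), SCAP (13.3) and SREBF1 (8.43), and upon re-expression SREBF2 (11.7) was below SCAP (13.1). The lowest members were CYP51A1, TM7SF2 and ACACA, all under 1 CPM per kilobase in CBX8 KO. Variation between CBX8 KO libraries was 1.09% of the mean for SCD and 0.927% for ACLY, compared with 25.3% for MVD and 35.3% for ACACA.

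Other genes of lipid metabolism were taken in 9 further lists of 121 genes, of which 100 could be tested. These lists, too, were chosen with earlier results of these data known. Of these 8 fell (8%) and 4 rose (4%), with a median log2 fold change of 0.01, compared with 6.63% and 6.23% of all tested genes. None of the 11 genes of SREBP processing and sterol sensing passed the test (1 lower and 0 higher at an unadjusted p under 0.05), and all 11 had a 95% interval within 1.5-fold of no change. INSIG2, the paralog of INSIG1, averaged 12.6 ± 1.38 CPM in CBX8 KO and 12.1 ± 1.58 with CBX8 (SD, 3 libraries each). MBTPS1 and MBTPS2, the proteases that cut SREBP, had log2 fold changes of -0.04 and 0.10. These 3 genes were picked after their values were seen. None of the 11 genes of the isoprenoid branches, which use farnesyl diphosphate for other ends than sterols, passed. Of these, 3 were lower and 0 higher at an unadjusted p under 0.05. At this unadjusted threshold 1831 of all 14461 tested genes were lower and 1831 higher.

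The list of acetyl-CoA and NADPH supply had 4 of its 8 tested genes lower and 0 higher. IDH1, a cytosolic source of NADPH, fell from a mean of 166 ± 6.03 to 114 ± 3.26 CPM (SD, 3 libraries each; log2 fold change -0.55, edgeR adjusted p = 1.9e-08). CS, citrate synthase (-0.22, edgeR adjusted p = 0.0021), and PDHA1, a subunit of pyruvate dehydrogenase (-0.20, edgeR adjusted p = 0.01), were among the others. SLC25A1, which exports citrate from mitochondria, was not among them, at -0.06, edgeR adjusted p = 0.59, and was picked after its value was seen. Of 4 tested genes of other sterol synthesis, LBR, a sterol reductase of the nuclear envelope, fell (-0.16, edgeR adjusted p = 0.024). Of 14 tested genes of sterol transport and storage, LIPA, the lysosomal lipase that frees cholesterol, fell (-0.19, edgeR adjusted p = 0.044) and none rose.

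In fatty acid synthesis and elongation beyond the members, MID1IP1, an activator of acetyl-CoA carboxylase, fell (-0.42, edgeR adjusted p = 0.0071) and FADS3 rose (0.26, edgeR adjusted p = 0.0076), among 11 tested. None of the 5 tested genes of other fatty acid activation and uptake passed (0 lower and 1 higher at an unadjusted p under 0.05). All 5 were above 0, as were 7397 of all 14461 tested genes. Of 15 tested genes of glycerolipid synthesis and lipid droplets, GPAT3, which starts glycerolipid synthesis, fell (-0.36, edgeR adjusted p = 8.6e-05), and DGAT2, which makes triacylglycerol (0.71, edgeR adjusted p = 0.0098), and PLIN3, a droplet coat protein (0.21, edgeR adjusted p = 0.017), rose. Of 21 genes of fatty acid oxidation, CPT1C rose (0.55, edgeR adjusted p = 0.0017) and none fell. The median log2 fold change of the oxidation list was 0.06, and that of the sterol and fatty acid branches was -0.14 and -0.12.

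**Figure D4:**
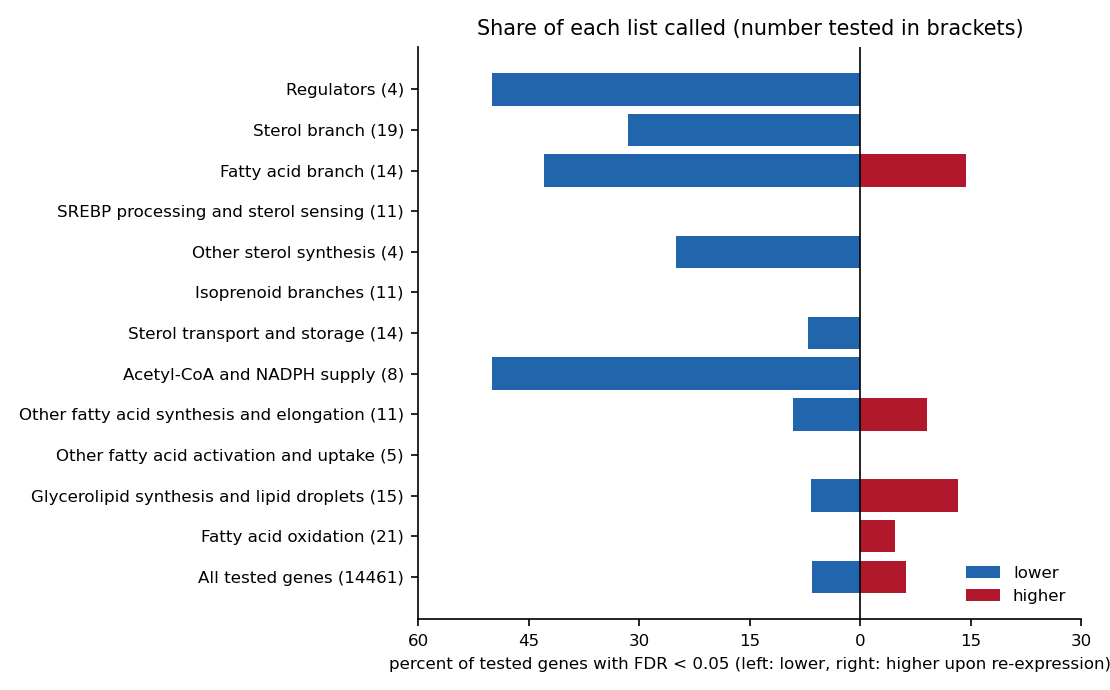
Percent of the tested genes of each list that fell (blue, left of 0) or rose (red, right of 0) upon WT CBX8 re-expression at an adjusted p under 0.05 in edgeR, with the number tested in brackets. Regulators (50% lower), the sterol branch (31.6%), the fatty acid branch (42.9%) and acetyl-CoA and NADPH supply (50%) have the longest bars to the left, beside 6.63% of all tested genes, and most lists hold fewer than 20 genes.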

How the data were processed

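RNA-seq libraries of T98G cells, 3 of CBX8 KO and 3 of WT CBX8 re-expression, were analysed, with groups from the sample titles. The table deposited by the authors holds raw counts for each gene symbol, not normalized. Per the methods and the submitters' processing notes, poly(A) RNA was sequenced as paired ends, adapters were removed with Trimmomatic and reads were aligned to hg38 with HISAT2. The program, annotation and strand setting used for counting are not given in the sources used here, so reads of overlapping or near-identical genes may be lost or assigned in more than 1 way. Counting error only is covered by the depth, since PCR duplicates carry no molecular identifiers.

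Genes were filtered with filterByExpr, scaled by TMM and compared with the quasi-likelihood test of edgeR 4.0.16 in R 4.3.3, with condition as the only term, as the study's methods name EdgeR with FDR < 0.05. The Benjamini-Hochberg adjustment ran over all 14461 tested genes. Standard errors are the log2 fold change divided by the root of the F statistic, and 95% intervals use the degrees of freedom of that fit. The test was checked on simulated counts. Alternatives were scaling by library size only, by RLE or by the upper quartile, the exact test of edgeR, DESeq2 1.42.0, voom of limma 3.58.1, other filters and thresholds, a replicate block, a correction for GC content and length (available for 87.8% of tested genes) and each library left out. Leaving out mitochondrially encoded genes and setting legacy to FALSE were added after seeing the data. Positions and overlaps follow GENCODE release 44 on hg38, and copies were found with minimap2 2.31. Libraries of a condition differed by more than sampling noise (chi-square per degree of freedom from 1.96 to 2.9), so all were kept.

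The members and lists were chosen with earlier results of these data known. Every library value is given for members with FDR < 0.05 and for the 4 regulators, the other members are summarised or set beside a member of the same step or family, and of other lists at most 3 genes with FDR < 0.05 are named, apart from those said to be picked later.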

Additional observations from a re-analysis of the deposited data

How the results depend on the processing

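Of the 16 genes that passed the test, 12 passed under all 18 alternative fits, and none of the 16 changed direction. The other 4 were DHCR7, FASN, FADS1 and FADS2, each of which lost its call in at least 1 fit. With each library left out in turn, between 10 and 14 genes fell and 2 rose, and the lowest number came without WT CBX8 re-expression replicate 2. A minimum 1.5-fold change left 2 lower and 0 higher, by construction. The median log2 fold change was -0.14 for the sterol branch, -0.12 for the fatty acid branch and -0.23 for the regulators. With library size only these were -0.0798, -0.0655 and -0.17, and with the correction for GC content and length those of the fatty acid branch and regulators were -0.17 and -0.36. The cause was not tested. With 1 library left out they lay between -0.19 and -0.13, between -0.16 and -0.10 and between -0.27 and -0.21. Over all tested genes, 51.6% of calls were lower, against 29.7% with library size only, 67.4% with the GC and length correction and 58.1% with DESeq2 (695 lower and 502 higher). With 1 library left out, between 635 and 851 genes were lower and between 593 and 792 higher.

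Over all genes and alternative fits, 19 log2 fold changes turned positive, all of genes that did not pass. With library size only it was 0.0047 for SREBF1, 0.0364 for SCAP, 0.0486 for HSD17B7 and 0.0306 for ELOVL1. HSD17B7 was also at 0.0064 with upper quartile scaling, 0.01 with voom, 0.0002 with the replicate block and 0.0009 with the GC and length correction. With 1 library left out, the ranges were -0.12 to 0.023 for SREBF1, -0.0607 to 0.0189 for SCAP, -0.36 to 0.0007 for MVD, -0.18 to 0.14 for HSD17B7 and -1.33 to 0.29 for ACACA. Of the 21 genes that did not pass, MVK, IDI1, LSS and ACLY passed in at least 1 fit.

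With the replicate number as a block, 12 members fell and 2 rose, DHCR7 (edgeR adjusted p = 0.051) and FADS1 (0.07) losing their calls. Libraries with the same number did not deviate together. Over 10353 genes the correlations of their deviations were -0.14, -0.18 and -0.12, and those of libraries with different numbers lay between -0.028 and 0.187. The numbers were treated as names. Depth limits CYP51A1, TM7SF2 and ACACA, with at most 28 counts in a library.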
